A study of Mus musculus with 6 samples.

Results

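The genes described here are the mouse zinc finger genes whose symbol is Zfp followed by a number, studied here in the macrophage-like mouse line RAW 264.7. They were taken from the symbols that belong to the deposited Ensembl identifiers. Zfp36, which encodes an RNA-binding protein of another zinc finger class, was left out. Genes were kept where FPKM averaged 2 or more across all 6 libraries, which gave 165 genes out of 373 with such a symbol and 55335 identifiers in all. FPKM is a fragment number scaled to transcript length and library size. The members were therefore chosen by their level over all libraries. Zfp260 was in addition singled out because its difference between the groups was already known.

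Poly(A) RNA was sequenced as paired ends in 2 groups of 3 libraries from wild-type RAW 264.7 cells. All cells received 200 ng/ml lipopolysaccharide (LPS), a component of Gram-negative bacteria sensed through TLR4, for 8 h. In the LPS plus ultrasound group, pulsed ultrasound of low intensity (50 mW/cm²) was applied for 10 min during this time. Its frequency was 1 MHz, given as 200 µs pulses repeated at 1 kHz, a duty cycle of 20%. The LPS group received LPS alone, and cells without LPS were not analysed here. No label tells whether the 3 libraries of each group stem from separate cultures, and the spread behind each p-value is that among these libraries alone and may be technical. The question put to the data is what ultrasound does to RNA levels when LPS is already present.

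Most Zfp genes encode C2H2 zinc finger proteins, in which each finger is a short loop held by a zinc ion between cysteine and histidine pairs and can contact a few bases of DNA. Many of them carry a KRAB domain at the amino end, which binds the corepressor TRIM28 and through it the histone methyltransferase SETDB1, so that bound DNA is packed into heterochromatin. KRAB zinc finger proteins are known above all for silencing retroelements and for keeping imprints, and their genes lie in clusters formed by repeated duplication. Other members of the series bind promoters as activators, and a few act on RNA, ribosomes or the ubiquitin system.

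The libraries carried a macrophage profile, with all 11 macrophage markers above 1 FPKM. The extraction text in the labels describes rat muscle, but of 12 skeletal muscle markers only Tnni2, at a mean of 28.4 FPKM, reached 1 FPKM, and Myod1, Myog, Myh1, Myh2 and Myh4 were listed at 0 in every library. The summed muscle markers ran from 25.8 to 29.5 FPKM with LPS plus ultrasound and from 29.3 to 32.2 FPKM with LPS, nearly all of it Tnni2. None of the 5 fibroblast, 3 T cell, 3 B cell, 3 endothelial, 3 erythroid and 3 neutrophil markers reached a mean of 1 FPKM. Many Zfp genes had their lowest value in LPS library 2, and values without it are given beside many of the results. If a step between low values stands for 1 fragment, the libraries held about 25200000 to 29200000 fragments.

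Zfp genes were expressed at low levels. The mean FPKM of the 165 members ran from 2.02 to 37.3 with a median of 4.90, against a median of 8.04 over the 11270 genes tested, which were those with a mean of at least 1 FPKM. A mean of 10 FPKM or more was reached by 21.2% of the members and by 43.2% of the tested genes. Of the members, 84 lay between 2 and 5 FPKM and 8 at 20 FPKM or more. Outside the limit, 49 further Zfp genes had a mean of 1 to 2 FPKM and 159 a lower one, of which 31 were listed at 0 in every library. The summed FPKM of the members was 1187, 1088 and 1186 in LPS plus ultrasound libraries 1, 2 and 3, and 1180, 1031 and 1174 in LPS libraries 1, 2 and 3. The 2 lowest sums were those of the libraries numbered 2, one in each group, and the ranges of the groups overlapped. In bulk RNA, fewer cells that express a gene and less of its RNA per cell cannot be told apart.

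The most abundant member was Zfp598, which encodes the ubiquitin ligase that recognises collided ribosomes, at a mean of 37.3 FPKM. Zfp106, whose product binds RNA, followed at 32.5 FPKM, and Zfp609, a partner of the cohesin loader NIPBL in mouse brain, at 25.7 FPKM. Zfp703, a corepressor gene, had 23.4 FPKM and Zfp146, whose protein consists largely of fingers, 21.8 FPKM. Zfp445, a KRAB gene needed for imprint maintenance in mice, had 21.2 FPKM, and Zfp207, whose product promotes spindle assembly, 21.02 FPKM. Zfp91, the gene of a ubiquitin ligase of non-canonical NF-kB signalling, had 20.7 FPKM, Zfp217, a corepressor-binding factor gene known as a human oncogene, 16.1 FPKM and Zfp655 15.9 FPKM. Their log2 fold changes (LPS plus ultrasound minus LPS, on log2(FPKM + 1)) ran from -0.38 for Zfp598 to 0.22 for Zfp207. The limit itself cut through a continuous range. Just inside it lay Zfp160, Zfp324 and Zfp963 at means of 2.02, 2.05 and 2.12 FPKM, and just outside it Zfp40, Zfp62 and Zfp7 at 1.98, 1.97 and 1.93 FPKM.

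The proteins were read from the longest coding sequence of each gene in the GENCODE M21 annotation. C2H2 fingers were counted by the spacing of their cysteines and histidines, and 162 of the 165 members had at least 1, with a median of 9 and a maximum of 36 in Zfp142. Zfp330, Zfp703 and Zfp839 had no match. A KRAB match was found in 76 members, with a median of 11 fingers, and none in the other 89, with a median of 7. KRAB genes made up 46.1% of the members and 69.3% of the 199 Zfp genes with a coding sequence that lay outside the level limit. The level was also lower within the members, with a median of 4.04 FPKM for the KRAB genes and 6.41 FPKM for the others. A SCAN domain, which joins such proteins in pairs, was matched in 9 members.

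Ultrasound was followed by no difference in the Zfp genes that passed the test over the whole transcriptome. In limma on log2(FPKM + 1) with Benjamini-Hochberg adjustment over all tested genes and a threshold of 0.05, 0 of the 165 members were called higher, against 0.0177% of tested genes, and 0 were called lower, against 0.0%. At an unadjusted limma p below 0.05, 10 members were higher (6.06%) and 11 lower (6.67%), against 6.18% and 9.16% of tested genes. In this fit these shares did not exceed the background. In some of the alternatives below the share of higher members did, and the reason was not tested. Leaving out 1 library gave 3 (1.82%, LPS plus ultrasound library 1 or LPS library 2) to 22 (13.3%, LPS library 1) higher members. The shares of tested genes in those 3 fits were 3.36%, 4.02% and 7.59%. The lower members then numbered 2 (1.21%, LPS library 3) to 10 (6.06%, LPS library 1), against 8.51% and 9.03% of tested genes. The split depended on the scaling. With all libraries scaled to the same sum, 7 members (4.24%) were higher and 13 (7.88%) lower, against 4.65% and 10.7% of tested genes. After quantile normalization 16 (9.7%) were higher and 5 (3.03%) lower, against 7.45% and 7.89% of tested genes. With the replicate number as a block, 28 of the 165 members (17.0%) were higher and 15 (9.09%) lower at the unadjusted threshold. Of tested genes, 12.6% were higher and 17.1% lower in that fit. At the adjusted threshold the block gave 0 members, against 0.0355% of tested genes called higher and 0.0799% called lower. No member other than Zfp260 passed the adjusted threshold in any of the fits that were run. Zfp260 entered these counts as lower without LPS library 2 and with sample weights, and nothing is read from this, since it was chosen for that difference. Without LPS library 2, 0.0177% of tested genes were called lower and 0.0532% higher, and with sample weights 1.35% lower and 0.63% higher.

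The differences of the members were small. The log2 fold change, given throughout as the difference of mean log2(FPKM + 1), LPS plus ultrasound minus LPS, ran from -1.36 to 0.65 with a median of 0.06, against a median of -0.02 over all tested genes. It lay within 0.25 of 0 for 132 of the 165 members and for 79.3% of tested genes. It exceeded 0.5 in size for 5 members (3.03%), against 4.21% of tested genes. These 5 were Zfp260, chosen for its difference, among the lower and Zfp568, Zfp451, Zfp764 and Zfp65 among the higher. All 3 LPS plus ultrasound libraries lay above all 3 LPS libraries for 18 members (10.9%), against 9.8% of tested genes. They lay below for 15 members (9.09%), against 13.4% of tested genes, and the groups overlapped for the remaining 132. With 1 library left out these counts ran to 37 higher, without LPS plus ultrasound library 2, and to 25 lower, without LPS library 1 or 2. Groups separate more easily with fewer libraries for any gene. The shares over tested genes are not given for these fits, so nothing is read from their counts. Within the pairs of same-numbered libraries, LPS plus ultrasound was the higher one in all 3 for 51 members (30.9%), against 24.3% of tested genes, and the lower one in all 3 for 39 (23.6%), against 30.9% of tested genes.

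**Figure D1:**
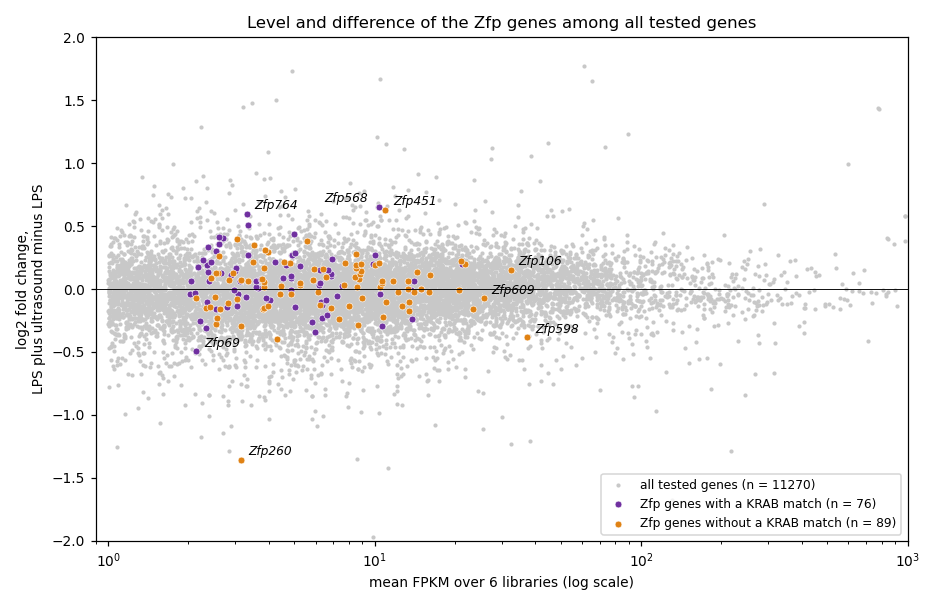
Each point is a gene, placed by its mean FPKM over the 6 libraries (log axis) and by its log2 fold change, LPS plus ultrasound minus LPS; 11270 tested genes are grey, the 76 Zfp genes with a KRAB match purple and the 89 without orange, and 23 genes lie outside the axes. The Zfp genes lie toward the low end of the level range. Zfp260, chosen for its difference, is the lowest of them at -1.36, and all tested genes run from -3.22 to 5.23.

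Zfp260 (ENSMUSG00000049421) had the largest difference among the members. Its product consists almost wholly of fingers, with 12 fingers in 407 residues and no KRAB match, and has been studied in rat heart muscle cells as a partner of GATA4. It had 1.31, 1.30 and 1.30 FPKM in LPS plus ultrasound libraries 1, 2 and 3, and 6.22, 3.78 and 4.95 FPKM in LPS libraries 1, 2 and 3. Every LPS plus ultrasound library lay below every LPS library. The means were 1.30 ± 0.00580 FPKM with LPS plus ultrasound and 4.98 ± 1.22 FPKM with LPS (SD, n = 3 each), a level 3.82-fold lower with LPS plus ultrasound, with a log2 fold change of -1.36 ± 0.15 (standard error). These values are a description, because the gene was chosen for this difference. Without LPS library 2 the log2 fold change was -1.51, and it lay between -1.83 and -1.21 in all alternatives.

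The LPS plus ultrasound values of Zfp260 were nearly identical. Their coefficient of variation was 0.444%, the smallest of the 165 members in that group, where the median was 10.3%. Other members came near it, such as Zfp318 at 0.740% and Zfp944 at 0.924%. In the LPS libraries the coefficient of Zfp260 was 24.5%, against a median of 13.97%. The annotation lists 7 transcripts of Zfp260 between 363 and 4006 bases, and its FPKM can vary with the transcript that received the fragments. Which isoforms were counted was not tested. None of the 75-base windows of its longest coding transcript occurs in another annotated gene, and no other gene shares its exon bases.

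The promoter of Zfp260 is shown because it carries a sequence element that recurs around this gene on chromosome 7. It is taken from RefSeq, GRCm38.p6, chr7:30094826-30095125, plus strand, and runs from 250 bases before to 50 bases after the annotated start, with the element in capitals.
Zfp260: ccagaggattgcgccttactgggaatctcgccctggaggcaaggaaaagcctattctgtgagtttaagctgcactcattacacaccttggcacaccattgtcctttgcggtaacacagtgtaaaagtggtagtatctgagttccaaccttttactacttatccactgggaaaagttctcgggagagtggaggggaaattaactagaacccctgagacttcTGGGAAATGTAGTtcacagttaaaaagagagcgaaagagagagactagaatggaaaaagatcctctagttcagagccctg
The window is poor in CG dinucleotides, with 5, against a median of 16 over the promoters of the 140 members that the RefSeq table holds and 13 over all 17492 protein-coding promoters. Both strands were searched for 5 motifs. CCAAT was found in 50.7% of member promoters and 39.0% of all, GGGCGG in 57.1% and 46.3%, the ETS-type CCGGAAG in 22.9% and 11.9%, and TATAAA in 5.71% and 13.3%. The window of Zfp260 holds none of these and holds the remaining one, ACTACANNTCCCA, on its minus strand. ACTACANNTCCCA is the core of the element known to be bound by human ZNF143, whose mouse counterpart Zfp143 is itself a member. It was added to the search after the Zfp260 promoter had been read.

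The element recurred in promoters of Zfp genes, including those around Zfp260. It was found in 2.28% of all protein-coding promoters, in 13 of 140 member promoters (9.29%) and in 34 of the 163 promoters of Zfp genes outside the level limit (20.9%). Zfp260 lies in a run of 15 Zfp genes on chromosome 7 that is broken only by the predicted gene Gm26920, and 10 of the 14 of them with a promoter in the table carried the element. Outside the run, the members with the element had overlapping groups except Zfp65 on chromosome 13, the only one of them shown. Stretches of Zfp65 and of the 5 members of the run that hold the element are written below. They are given on the strand that reads ACTACANNTCCCA, with 10 bases on either side.
Zfp84 (chr7:29768518-29768550, minus strand): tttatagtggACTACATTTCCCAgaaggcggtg
Zfp790 (chr7:29815957-29815989, minus strand): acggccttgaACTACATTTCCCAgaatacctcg
Zfp566 (chr7:30090564-30090596, minus strand): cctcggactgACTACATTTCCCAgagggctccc
Zfp260 (chr7:30095036-30095068, minus strand): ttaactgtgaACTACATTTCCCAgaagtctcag
Zfp146 (chr7:30169850-30169882, plus strand): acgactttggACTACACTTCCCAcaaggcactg
Zfp65 (chr13:67729170-67729202, plus strand): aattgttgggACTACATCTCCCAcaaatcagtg
The 4 genes Zfp84, Zfp790, Zfp566 and Zfp260 share all 13 letters of the element. Of the 13 members with the element, 10 had a positive and 3 a negative log2 fold change. Among all 165 members 97 were positive and 68 negative, and 53.9% of tested genes were negative. The median with the element was 0.11, or 0.04 without LPS library 2, against 0.06 and -0.01 over all members. Nothing is read from these signs. A match describes the letters of the window and no binding was measured.

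No neighbour of Zfp260 had a difference of its size and direction. Zfp566, a KRAB gene that precedes it on the opposite strand, had 6.09, 5.21 and 6.24 FPKM in LPS plus ultrasound libraries 1, 2 and 3, and 4.40, 2.99 and 4.93 FPKM in LPS libraries 1, 2 and 3. Its groups did not overlap, in the direction opposite to Zfp260, and its log2 fold change was 0.44 ± 0.16 (limma with Benjamini-Hochberg adjusted p = 0.27), or 0.27 without LPS library 2. In the annotation 310 of the 1728 exon bases of Zfp566 are also exon bases of Gm26920, and its reads may be divided between them. Zfp382, a KRAB gene that follows Zfp260 on the same strand, had 6.24, 5.63 and 7.14 FPKM with LPS plus ultrasound and 6.77, 6.38 and 7.18 FPKM with LPS, and its groups overlapped. The next gene, Zfp146, had 24.7, 20.3 and 24.7 FPKM with LPS plus ultrasound and 22.5, 16.0 and 22.3 FPKM with LPS, again with overlap, although LPS plus ultrasound was higher in all 3 pairs of same-numbered libraries.

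The run held 7 members in all, and 6 of them had log2 fold changes between -0.09 and 0.65. Zfp568, a KRAB gene that silences the placental Igf2 promoter in mice, had the largest positive difference of all members, at 0.65 ± 0.48. It had 13.2, 9.33 and 13.99 FPKM in LPS plus ultrasound libraries 1, 2 and 3, and 12.5, 2.64 and 10.5 FPKM in LPS libraries 1, 2 and 3. LPS plus ultrasound was higher in all 3 pairs of same-numbered libraries. The size of the difference rested on the libraries numbered 2: it was 0.06 without LPS library 2 and 0.23 without both libraries numbered 2. Zfp84 and Zfp790, also KRAB genes, had log2 fold changes of 0.27 and 0.15. Without LPS library 2 these were 0.08 and 0.02, and without both libraries numbered 2 they were 0.14 and 0.04.

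**Figure D2:**
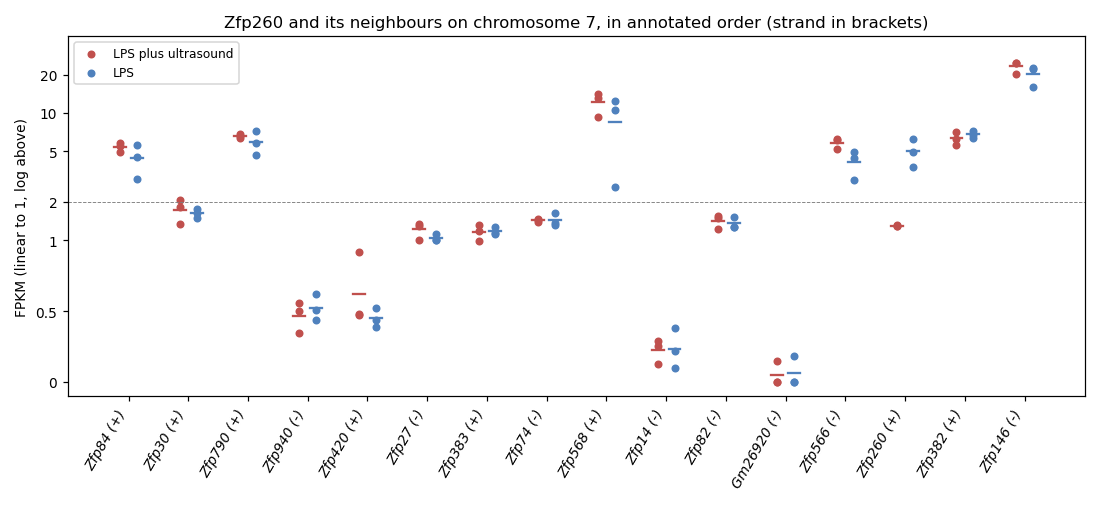
FPKM of the 15 Zfp genes and Gm26920 that form the run around Zfp260, in annotated order, with a point for each library, a bar for each group mean, LPS plus ultrasound in red left of LPS in blue, and the dashed line at 2 FPKM; the axis is linear to 1 and logarithmic above. Only Zfp260 shows LPS plus ultrasound points far below the LPS points, and LPS library 2 is the low point of Zfp568.

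Among the other members with the largest negative differences, Zfp598 had the smallest spread among its LPS libraries. It had 34.9, 30.5 and 31.5 FPKM in LPS plus ultrasound libraries 1, 2 and 3, and 42.8, 42.0 and 42.4 FPKM in LPS libraries 1, 2 and 3. The groups did not overlap, and its log2 fold change was -0.38 ± 0.07, with an adjusted p of 0.15 by limma with Benjamini-Hochberg adjustment. Leaving out LPS library 2 gave -0.39. Zfp69, a KRAB gene linked to diabetes in obese mice, had 1.35, 1.57 and 1.86 FPKM with LPS plus ultrasound and 1.96, 2.79 and 3.32 FPKM with LPS, a log2 fold change of -0.50 ± 0.16. Its groups were separate by a narrow gap. Zfp956 had 3.66, 3.09 and 3.94 FPKM with LPS plus ultrasound and 4.32, 4.56 and 6.28 FPKM with LPS, a log2 fold change of -0.40 ± 0.14. It shares exon bases with the pseudogene Zfp783 on the same strand, so its level is uncertain.

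Zfp772, Zfp637 and Zfp948, at log2 fold changes of -0.31, -0.29 and -0.29, and Zfp68 at -0.34 complete the 8 largest negative differences. The groups were separate for Zfp772 and Zfp637. For Zfp68 they overlapped, and LPS plus ultrasound library 3, at 3.45 FPKM, lay well below the other 5 libraries, which ran from 5.83 to 7.26 FPKM.

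On the positive side, Zfp451, the gene of a SUMO ligase in human cells, had 14.2, 11.4 and 14.3 FPKM in LPS plus ultrasound libraries 1, 2 and 3, and 6.98, 5.90 and 13.1 FPKM in LPS libraries 1, 2 and 3. LPS library 3 lay within the range of the LPS plus ultrasound libraries, so the groups overlapped, while LPS plus ultrasound was higher in all 3 same-numbered pairs. The log2 fold change was 0.63 ± 0.26 (limma with Benjamini-Hochberg adjusted p = 0.31), or 0.42 without LPS library 2. The KRAB gene Zfp764 had 4.01, 3.39 and 5.06 FPKM with LPS plus ultrasound and 2.76, 1.46 and 3.16 FPKM with LPS, a log2 fold change of 0.60 ± 0.22, or 0.37 without LPS library 2. The KRAB gene Zfp65 had 4.06, 3.59 and 4.62 FPKM with LPS plus ultrasound and 2.96, 1.87 and 2.98 FPKM with LPS, a log2 fold change of 0.51 ± 0.15, or 0.35 without LPS library 2. Both had separate groups, and in both LPS library 2 was the lowest of the 6. For Zfp764, 13.6% of the 75-base windows occur in another gene.

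Zfp930 and Zfp787, at log2 fold changes of 0.41 and 0.40, also had separate groups. Zfp12, at 0.41, took 2 levels that did not follow the groups. It had 4.24, 3.96 and 1.43 FPKM in LPS plus ultrasound libraries 1, 2 and 3, and 1.25, 3.93 and 1.44 FPKM in LPS libraries 1, 2 and 3. Leaving out any 1 of the 6 libraries moved its log2 fold change by over 1.5 times, to between 0.20, without LPS library 1, and 0.77, without LPS library 2. Other members, chosen after their values were seen, had single libraries far from the rest. Zfp740 had 13.2 FPKM in LPS plus ultrasound library 3 and 3.66 to 4.71 FPKM in the other 5 libraries. Zfp422 had 0.540 FPKM in LPS library 3 and 2.80 to 4.97 FPKM in the others. The coefficient of variation exceeded 30% for 6 members with LPS plus ultrasound and for 11 with LPS. Of the 165 members, 148 have more than 1 annotated transcript, and which transcripts the fragments were assigned to was not tested.

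**Figure D3:**
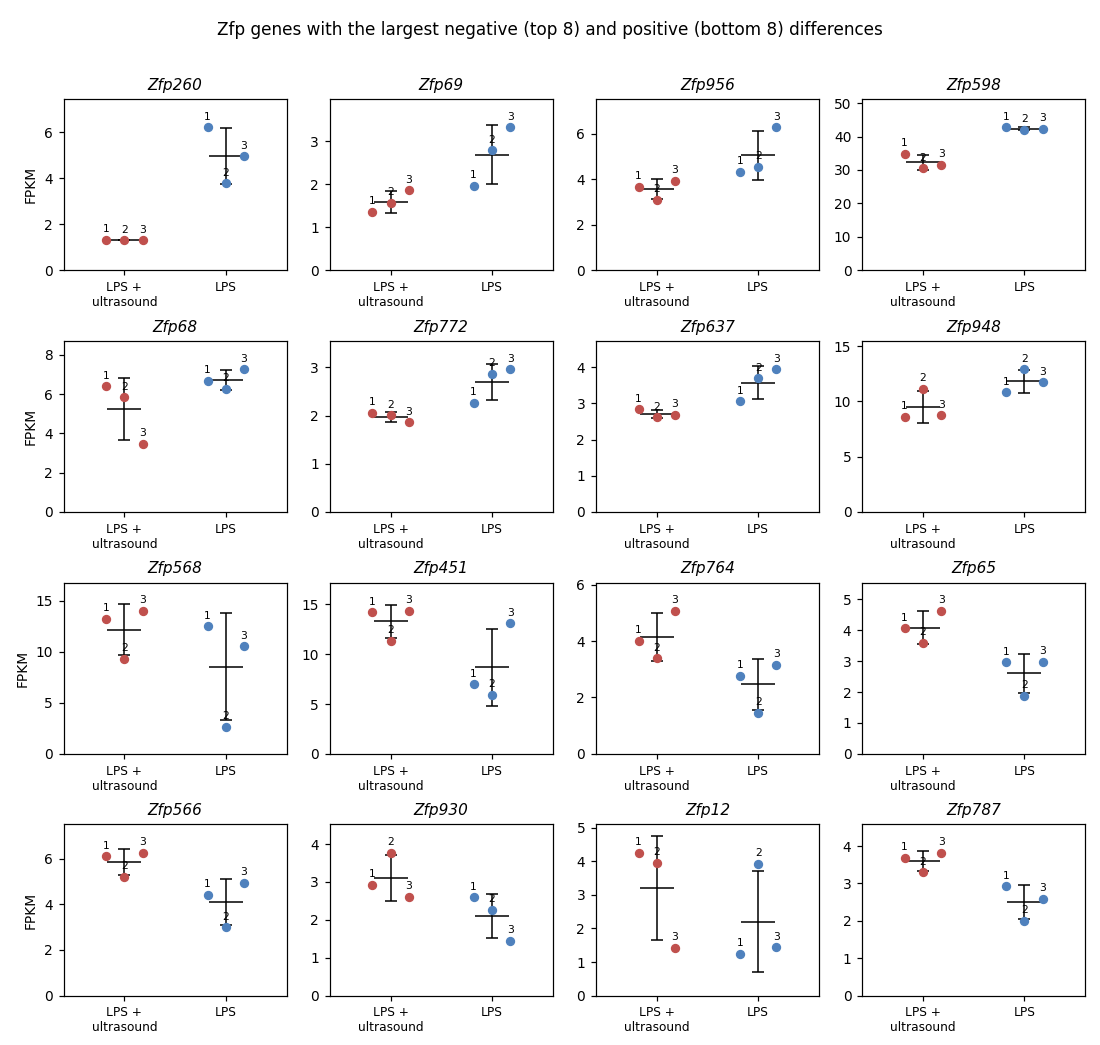
FPKM of the 8 members with the largest negative (top 2 rows) and the 8 with the largest positive differences (bottom 2 rows), with LPS plus ultrasound in red left of LPS in blue; numbers mark the libraries, and bars give the mean and SD of 3 libraries. Zfp260 and Zfp598 show separate groups, with little spread within LPS plus ultrasound for Zfp260 and within LPS for Zfp598. LPS library 2 is far below the other libraries for Zfp568, and Zfp12 takes 2 levels in both groups.

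By known role, the members that act on ribosomes or RNA had a negative median. Of 11 such members, 7 had a negative and 4 a positive log2 fold change, and 0 were called. The median was -0.14, against -0.02 over all tested genes. It was -0.07 without LPS library 2 and -0.08 without both libraries numbered 2. Besides Zfp598, the groups were separate and lower for Zfp330, a nucleolar protein gene, at -0.23 and for Zfp346, whose product binds double-stranded RNA, at -0.14. For Zfp330, 10.93% of the 75-base windows occur in another gene. Zfp622, a homologue of a yeast factor of large ribosomal subunit maturation, had -0.17 with overlapping groups, and Zfp593, whose yeast homologue accompanies the same subunit out of the nucleus, -0.14, or -0.07 without LPS library 2. Of the 2088 exon bases of Zfp593, 1627 are also exon bases of E130218I03Rik on the opposite strand, so its level is uncertain. Zfp207 had separate groups with LPS plus ultrasound higher, with 23.0, 23.8 and 21.2 FPKM with LPS plus ultrasound and 21.1, 17.4 and 19.6 FPKM with LPS, a log2 fold change of 0.22 ± 0.09. Zfp106 had 35.9, 32.1 and 34.5 FPKM with LPS plus ultrasound and 33.6, 28.6 and 30.02 FPKM with LPS, with overlapping groups but higher values with LPS plus ultrasound in all 3 same-numbered pairs.

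Promoter and chromatin factors without a KRAB match numbered 23 among the members. Of these, 15 had a positive and 8 a negative log2 fold change. The median was 0.06, or -0.00 without LPS library 2 and 0.05 without both libraries numbered 2. Zfp281, a repressor of pluripotency genes in mouse stem cells, had 15.0, 15.4 and 14.3 FPKM with LPS plus ultrasound and 15.9, 14.3 and 14.6 FPKM with LPS. Zfp384, at 11.1, 10.9 and 11.5 FPKM with LPS plus ultrasound and 10.1, 8.72 and 9.89 FPKM with LPS, and Zfp710, at 9.11, 9.45 and 9.74 FPKM with LPS plus ultrasound and 7.76, 6.70 and 8.37 FPKM with LPS, had separate groups. Zfp143 had 4.80, 4.82 and 3.81 FPKM with LPS plus ultrasound and 4.45, 3.34 and 2.71 FPKM with LPS, which overlapped, with LPS plus ultrasound higher in all 3 same-numbered pairs. Zfp91 differed by a log2 fold change of -0.01 ± 0.07, which turned positive in 4 alternatives, and 847 of its 10046 exon bases are shared with Cntf on the same strand.

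Of the KRAB genes with known targets, Zfp445, Zfp809 and Zfp568 had overlapping groups but higher values with LPS plus ultrasound in all 3 same-numbered pairs, and Zfp984 was lower in 2 of the 3. Zfp445 had 23.3, 22.5 and 22.2 FPKM with LPS plus ultrasound and 22.9, 18.2 and 18.1 FPKM with LPS. Zfp809, whose product brings TRIM28 to retroviral DNA in mouse stem cells, had 10.7, 9.34 and 11.6 FPKM with LPS plus ultrasound and 10.2, 7.09 and 10.1 FPKM with LPS. Its log2 fold change was 0.20, or 0.04 without LPS library 2 and 0.12 without both libraries numbered 2. LPS library 2 was the lowest of the 6 for Zfp809, and LPS libraries 2 and 3 were the lowest for Zfp445.

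The balance of signs among the members shifted when LPS library 2 was left out. That library was the lowest of the 6 for 69 members (41.8%), against 25.2% of all tested genes. The next was LPS plus ultrasound library 2, the lowest for 37 members (22.4%, against 17.9% of tested genes), while LPS library 1 and LPS plus ultrasound library 1 were lowest for 7 and 8 members. The median deviation of the members from their own means was -0.11 on the log2 scale in LPS library 2, against 0.01 over all tested genes there, and between -0.02 and 0.07 in the other 5 libraries. With all libraries 97 members had a positive and 68 a negative log2 fold change, against 53.9% negative among tested genes. Without LPS library 2 the counts were 78 and 87, against 54.2% negative, and the median of the members was -0.01. Without both libraries numbered 2 the median was 0.02. Leaving out LPS library 2 alone keeps its same-numbered partner, which was low as well. A shift of LPS library 2 alone and a shift shared by both libraries numbered 2 were not told apart.

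**Figure D4:**
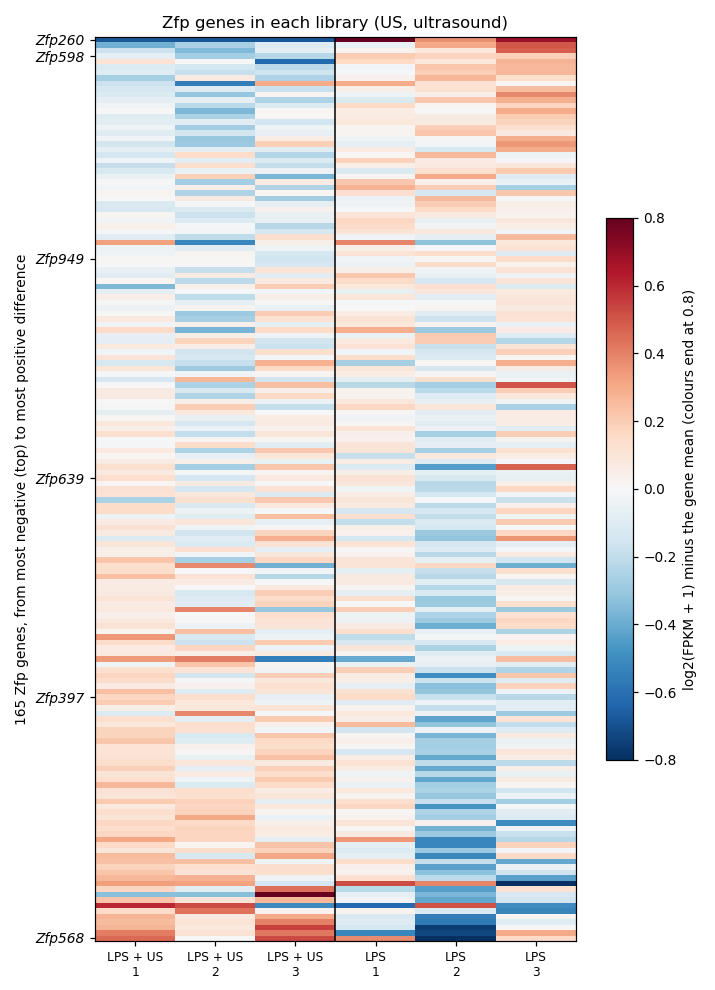
Each row is one of the 165 Zfp genes, ordered from the most negative to the most positive log2 fold change, and each column a library, LPS plus ultrasound (US) left of LPS; colour gives log2(FPKM + 1) minus the mean of the gene over the 6 libraries. Blue is most frequent in the column of LPS library 2, the lowest library for 69 genes, and the top row is Zfp260.

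The members were also set apart by type of protein. The median log2 fold change was 0.06 for the 76 members with a KRAB match, of which 46 were positive and 30 negative. It was 0.08 for the 60 members without a KRAB match and with 5 or more fingers. For the 29 without a KRAB match and with fewer fingers, of which 18 were negative, it was -0.06. Without LPS library 2 these medians were 0.00, 0.01 and -0.05. Without both libraries numbered 2 they were -0.00, 0.05 and -0.07. LPS library 2 was the lowest of the 6 for 48.7% of the KRAB members, 41.7% of the many-fingered others and 24.1% of those with few fingers. The differences between these types were not tested.

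**Figure D5:**
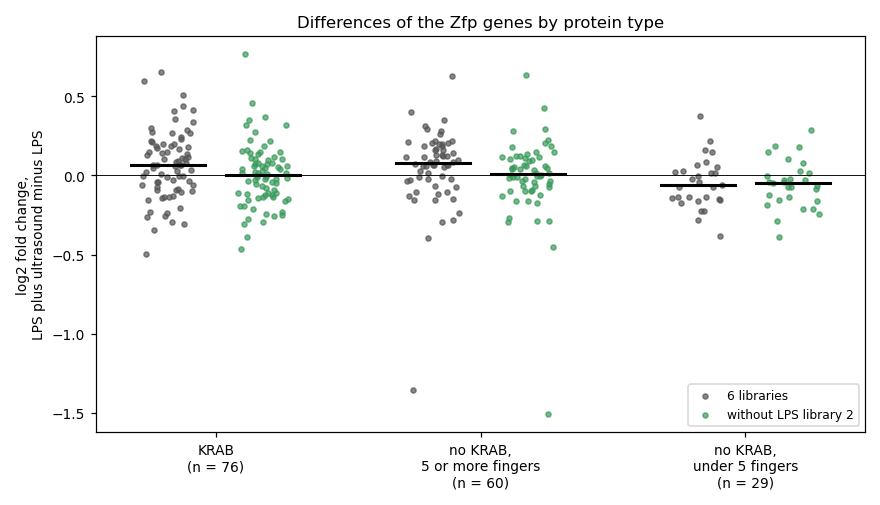
Log2 fold changes, LPS plus ultrasound minus LPS, of the members by protein type, with a point for each gene and a black bar at the median, for all 6 libraries (grey) and without LPS library 2 (green). The medians are 0.06, 0.08 and -0.06 with all libraries and 0.00, 0.01 and -0.05 without LPS library 2, and the lowest point in the middle type is Zfp260.

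The members lie on 20 chromosomes, with 38 on chromosome 7 (23.0%, against 7.44% of tested genes) and 21 on chromosome 17 (12.7%, against 5.28%). In 31 cases 2 members were direct neighbours among protein-coding genes, of which 13 had log2 fold changes of the same sign and 18 of opposite sign. On chromosome 17 the neighbours Zfp51, Zfp53, Zfp52 and Zfp948 were all negative, at -0.14, -0.23, -0.00 and -0.29, and Zfp944, Zfp758 and Zfp946 all positive, at 0.21, 0.36 and 0.19, or 0.12, 0.23 and 0.22 without LPS library 2. Of the 75-base windows of these genes, 0.92% occurred in another gene for Zfp51 and 0.0% for Zfp53, Zfp52 and Zfp948. The values were 4.76% for Zfp944 and 0.7% for Zfp946. Near-identical copies can divide reads between zinc finger genes. More than 5% of the 75-base windows occurred in another gene for 26 members, and more than 20% for 10, with 75.3% for Zfp97, so the levels of those 10 are uncertain.

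The corepressor machinery of the KRAB proteins was measured by a list of 38 genes, of which 36 were tested. In limma 0 of them were called in either direction, and 1 was higher and 2 lower at the unadjusted threshold, where 6.18% and 9.16% of tested genes were. Of the 36, 6 had separate and lower groups (16.7%, against 13.4% of tested genes) and 3 separate and higher groups (8.33%, against 9.8%). The median log2 fold change was -0.03, or -0.05 without LPS library 2. Setdb1, the histone methyltransferase gene, had the largest positive value, with 22.2, 23.6 and 21.5 FPKM with LPS plus ultrasound and 19.1, 15.1 and 18.2 FPKM with LPS, a log2 fold change of 0.35 ± 0.10 (limma with Benjamini-Hochberg adjusted p = 0.22), or 0.26 without LPS library 2. Its partner Trim28 had 41.1, 34.4 and 41.8 FPKM with LPS plus ultrasound and 38.8, 36.1 and 44.3 FPKM with LPS, with overlap. Smarcad1, a remodelling factor gene, and Mbd3, a subunit gene of the NuRD complex, had 0.22 ± 0.10 and 0.15 ± 0.07 with separate groups. The histone methyltransferase gene Ehmt2 had -0.32 ± 0.11, the NuRD subunit gene Mta1 -0.26 ± 0.10 and the histone chaperone gene Daxx -0.19 ± 0.08.

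Related zinc finger families with a mean of at least 2 FPKM had 0 calls in each by limma, and at the unadjusted threshold 1 gene was higher (of the Zbtb genes) and 4 were lower (2 Klf and Sp genes, 1 Zbtb gene and 1 Zkscan or Zscan gene), against 6.18% higher and 9.16% lower among tested genes. The median log2 fold change was 0.01 for 25 Zbtb genes, -0.02 for 11 Zkscan and Zscan genes and -0.07 for 15 Klf and Sp genes. Without LPS library 2 these medians were -0.02, -0.13 and -0.05. Among the RNA-binding CCCH genes, Zfp36, whose product tristetraprolin destabilises Tnf mRNA, had 51.9, 50.2 and 51.3 FPKM with LPS plus ultrasound and 65.0, 53.7 and 48.4 FPKM with LPS. Its log2 fold change was -0.11 ± 0.11, which turned positive, at 0.0024, without LPS library 1. Zfp36l1 and Zfp36l2 had -0.16 ± 0.18 and 0.13 ± 0.12, or -0.27 and 0.05 without LPS library 2, all with overlapping groups.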

How the data were processed

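The authors deposited 1 table of FPKM per mouse Ensembl gene, with a column for each library. How reads were aligned and quantified is not stated in the sources used here, nor is the mouse build, and mRatBN7.2, a rat build, stands in the submitters' processing notes. Of 55335 identifiers, 55154 had a symbol. Fragment counts were not recovered: among low values, 51.2% to 53.8% fell into 1 narrow step per library, which gave the estimated fragment numbers, and no counting interval is given.

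All 11270 genes averaging 1 FPKM or more entered limma 3.58.1 (R 4.3.3) on log2(FPKM + 1), with variance trend, robust moderation, two-sided tests and Benjamini-Hochberg adjustment, after a check on simulated data. Both groups carry the numbers 1, 2 and 3. Deviations from group means, across genes, correlated at 0.18, 0.44 and 0.41 between same-numbered libraries, so equal numbers were read as pairs, on the strength of the data and titles. The fold changes, errors and p-values given are from the fit without this block, and the fit with it is an alternative.

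The members and lists were chosen with earlier results of these data known. Named genes were Zfp260, the 10 most abundant members, the 8 largest differences per direction, the genes nearest the limit, corepressors with the smallest p, and Zfp36, Zfp36l1 and Zfp36l2; genes of the role groups and of the Zfp260 run are named beside them. Proteins were translated from GENCODE M21, since no protein table was used here. A KRAB match allowed up to 5 mismatches in 21 scored positions and a SCAN match 7 in 26. Another 5 members had 6 to 9 mismatches to the KRAB pattern. A missing match does not show that the domain is absent. Tasor had no matching symbol and Dnmt3b lay under the filter.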

Additional observations from a re-analysis of the deposited data

How the results depend on the processing

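Members called higher and corepressor calls stayed at 0 in every alternative that was run. The median of the members ran from -0.01, without LPS library 2, to 0.09, with quantile normalization, and the members with a negative sign from 57, with quantile normalization, to 87, without LPS library 2. With the replicate number as a block, 28 members (17.0%) were higher at the unadjusted p, against 10 (6.06%) without it. The shares of tested genes were 12.6% and 6.18%, and the block changed no adjusted call of a member. Sample weights gave 22 higher (13.3%), against 11.3% of tested genes. The adjusted lower count was 1 with sample weights, for Zfp260, which was chosen for that difference and from which nothing is read. Quantile normalization gave 16 higher and 5 lower at the unadjusted p, and leaving out both libraries numbered 2 gave 5 and 7 (5.28% and 9.0% of tested genes), with 37 members separate and higher and 34 separate and lower. Leaving out 1 library at a time gave 0 to 1 adjusted lower calls (the 1 without LPS library 2), 3 to 22 higher and 2 to 10 lower at the unadjusted p, and 18 to 37 separate higher and 17 to 25 separate lower members. The 3 higher members were left without LPS plus ultrasound library 1 or LPS library 2, the 22 came without LPS library 1, and the 2 lower members were left without LPS library 3. Past 1.5 times, counts also moved without LPS plus ultrasound library 3 (5 higher, 6 lower, 30 separate higher, 23 separate lower), LPS plus ultrasound library 1 (5 lower), LPS plus ultrasound library 2 or LPS library 2 (7 lower), LPS library 1 (35 separate higher) and LPS library 3 (29 separate higher). Groups separate more easily with fewer libraries for any gene. For all fits with 1 or both libraries left out, the separate counts stand without shares over tested genes, and nothing is read from them. The log2 fold change of Zfp260 was -1.83 with a pseudocount of 0.1, and a limit of 5 FPKM left 81 members. Of 36 named genes, 8 with small differences turned in sign in 18 of 540 gene and alternative pairs. With quantile normalization Zfp160 had 0.0095 and Zfp963 0.0013, with median-ratio scaling Zfp91 had 0.0076, and without both libraries numbered 2 Zfp160 had 0.028, Zfp324 -0.0073 and Zfp91 0.0026. With 1 library left out, log2 fold changes ran from -0.10 to 0.060 for Zfp160, from -0.016 to 0.19 for Zfp324, from -0.21 to 0.0024 for Zfp36, from -0.29 to 0.0026 for Zfp36l1, from -0.16 to 0.0090 for Zfp609, from -0.10 to 0.062 for Zfp655, from -0.040 to 0.016 for Zfp91 and from -0.13 to 0.051 for Zfp963. The cause of these shifts was not tested.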
